A study of Mnemiopsis leidyi with 50 samples.

Results

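The transcripts described here were 148 protein models of the ctenophore *Mnemiopsis leidyi* whose level, averaged over groups of neighbouring hours, was highest at 13–14 hours post fertilization (hpf). They were taken from 16548 models (ML2.2 identifiers). Levels are CPM, the counts of a model per 1000000 counts of its embryo, and were averaged over the embryos of 8 windows (1–3, 4–6, 6.5–8, 8.5–10, 11–12, 13–14, 15–17 and 18–20 hpf). A total of 3191 models had their highest window at 13–14 hpf, and 1094 of them reached at least 20 CPM there. The 150 models with the largest share of the sum of their 8 window means at 13–14 hpf were taken, and 2 of these were left out. The members were thus chosen by their mean CPM in each window, and these levels are given below as a description with no test.

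Each library was made from a single whole embryo, of known age and with no treatment, by CEL-Seq, in which barcoded RNA is amplified and sequenced from its 3′ end. The labels name neither a strain nor the parents. There were 50 embryos at 26 time points, single ones up to 12 hpf and 4 an hour thereafter, to 20 hpf. Of these, 46 had at least 200000 counts and were used (3, 4, 4, 3, 2, 8, 11 and 11 embryos in the 8 windows, in order). Their totals ranged from 278730 to 2079694 counts (median 868384), so that the level of a model at 20 CPM rests on few counts in the shallowest embryos.

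Ctenophores catch prey with tentacles that carry colloblasts, adhesive cells found only there. In *M. leidyi* the tentacle forms from a thickened epithelium that folds inward into a sheath, and it grows out from a bulb at the base of that sheath, where new cells are continually made. The hours after the sheath has formed are those in which the embryo builds the organs of the swimming cydippid, its comb plates, apical organ, pharynx and tentacles. Because RNA was taken from whole embryos, more cells of a type and more RNA per cell cannot be told apart in any level below.

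The libraries fell into 2 groups by the reads that the counting program classed as ambiguous. In the first group (19 embryos, at 1–12 hpf, with embryo 1 at 13 hpf and embryo 1 at 20 hpf) these were 3.21–4.54% of the reads, and 45.6–50.7% were not aligned. In the second (30 embryos, all the others at 13–20 hpf) they were 0.740–2.04%, and 55.4–78.4% were not aligned. The embryo at 0 hpf, with 1119 counts, was placed in neither. All windows before 13 hpf therefore hold the first group only, and 7 of the 8 embryos at 13–14 hpf were of the second.

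Most members were at or near 0 in early embryos and far higher at 13–14 hpf, and the median member was still well above its early level at 18–20 hpf. Among the exceptions, 6 members had at least 10 CPM already at 1 hpf. These included ML10213a, with the highest mean of a member at 1–3 hpf (143 CPM, against 976 at 13–14 hpf). They also included ML218818a, with the highest at 4–6 hpf (123 CPM, against 8642 at 13–14 hpf). That mean came mostly from the embryo at 6 hpf, with 394 counts of ML218818a. The embryos at 4, 4.5 and 5 hpf had 5, 15 and 11. Further members first reached 10 CPM in the hours up to 11 hpf, as given below. The median member had a window mean of 0 CPM at 1–3 hpf, 0.909 at 4–6 hpf, 2.61 at 6.5–8 hpf, 5.60 at 8.5–10 hpf and 11.4 at 11–12 hpf. It then had 54.4 CPM at 13–14 hpf, 38.6 at 15–17 hpf and 31.3 at 18–20 hpf. Among the 6148 models with at least 20 CPM in some window, the median at 13–14 hpf was 43.8 CPM. The share of a member's summed window means that fell at 13–14 hpf ranged from 31.8% to 52.9% (median 35.4%). The peak was thus a broad one in most members, with the median member still at 67.4% of its 13–14 hpf level at 15–17 hpf (range 18.9–99.4%) and at 57.5% at 18–20 hpf (range 4.89–99.4%).

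Summed over all members, the level was 0.0380% of the counts at 1–3 hpf, 0.0527% at 4–6 hpf, 0.231% at 6.5–8 hpf, 0.490% at 8.5–10 hpf and 1.38% at 11–12 hpf. It was 3.68% at 13–14 hpf, 2.34% at 15–17 hpf and 2.06% at 18–20 hpf. The single embryos at 11 and 12 hpf had 0.796% and 1.96%. The 4 embryos at 13 hpf had 3.34% (embryo 1, of the first library group), 4.57%, 3.88% and 4.89%, and those at 14 hpf had 2.87%, 2.48%, 4.57% and 2.83%. All 8 lay above both earlier embryos, but not above all later ones, since embryo 4 at 15 hpf had 4.06% and embryo 4 at 19 hpf had 3.99%.

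**Figure D1:**
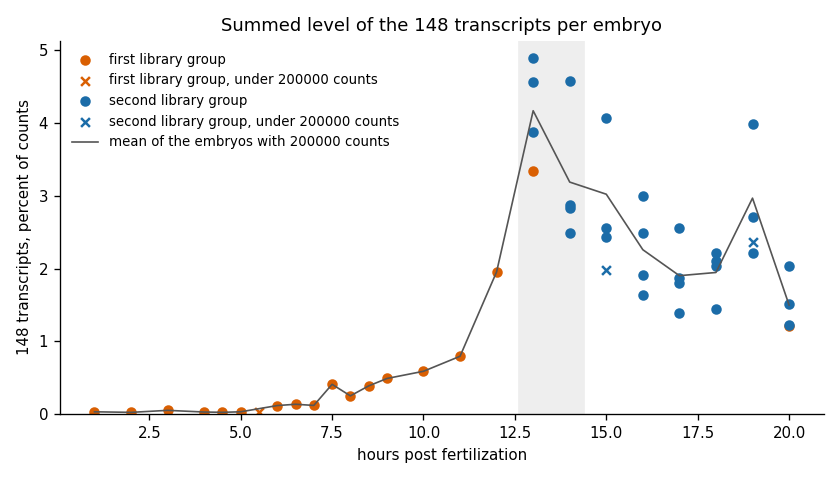
Summed level of the 148 transcripts in each embryo (vertical axis, percent of the embryo's counts) against age (horizontal axis, hours post fertilization), with orange points for the first and blue points for the second library group, crosses for embryos under 200000 counts, a line for the mean of an hour and grey shading over 13–14 hpf. The 8 shaded embryos sit between 2.48% and 4.89%, above the 1.96% at 12 hpf, and the embryos at 15 and 19 hpf with 4.06% and 3.99% overlap them.

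The members differed in when they appeared. Counts were 0 in all 7 embryos at 1–6 hpf for 26 members, and for 1 member, ML31167a, in all 14 embryos at 1–10 hpf, which allows a level of up to 0.286 CPM over these embryos (3 counts, counting error only). Its 8 embryos at 13–14 hpf ranged from 4.82 to 91.4 CPM. A level of 10 CPM was first reached at 1, 2, 3, 4, 4.5 and 5 hpf by 6, 2, 2, 2, 1 and 3 members. At 6, 6.5, 7, 7.5 and 8 hpf it was first reached by 9, 10, 8, 17 and 5 members. The numbers at 8.5, 9, 10 and 11 hpf were 10, 6, 11 and 6. It was first reached at 12 hpf by 20 members and not before 13 hpf by 30. The level at 13–14 hpf was at least 4 times that at 11–12 hpf for 82 members and under 2 times for 16. Within 13–20 hpf, the highest hourly mean fell at 13 hpf for 63 members, at 14 hpf for 44 and at 15 hpf for 19, and 1, 5, 5, 8 and 3 members had theirs at 16, 17, 18, 19 and 20 hpf. Over all 24 time points used, 3 members had a time point before 13 hpf, of 1 embryo each, above every later hourly mean, namely ML22661a (100 CPM at 12 hpf), ML141127a (28.3 CPM at 11 hpf) and ML00052a (24.8 CPM at 10 hpf).

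They also differed in how far they came down. At 18–20 hpf 54 members were under 50% of their 13–14 hpf level, and 25 members were under 50% already at 15–17 hpf. The next highest window was 15–17 hpf for 92 members, 18–20 hpf for 45, 11–12 hpf for 10 and 8.5–10 hpf for 1. The level at 18–20 hpf was above that at 15–17 hpf for 48 members, which is a dip between the peak and the end of the series by their means.

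**Figure D2:**
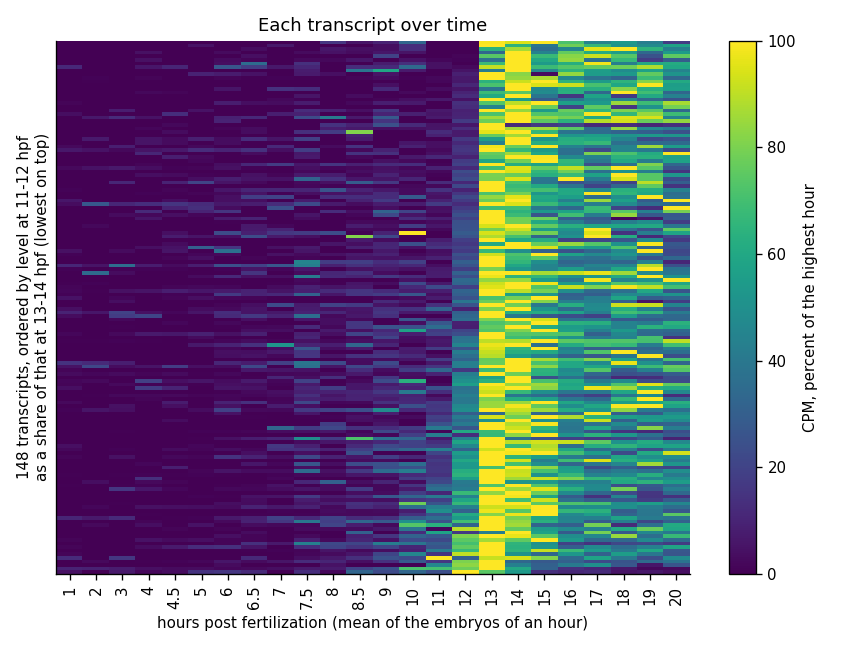
Level of each of the 148 transcripts (1 line of colour each, ordered from top to bottom by the level at 11–12 hpf as a share of that at 13–14 hpf) over 24 time points, as a percent of the transcript's highest hourly mean. The colours are dark before 11 hpf in most lines, brightest at 13 and 14 hpf, where 63 and 44 members have their highest mean of 13–20 hpf, and uneven from 15 hpf on.

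Whether the members stood apart in every embryo was counted rather than tested, because the rule used these windows. Every embryo at 13–14 hpf lay above both embryos at 11–12 hpf for 56 members (37.8%), where 15.1% of the 6148 models did. Every embryo at 13–14 hpf lay above all 11 embryos at 18–20 hpf for 4 members, where 0.293% of models did. For no member did all 8 lie above the 11 embryos at 15–17 hpf (0.0163% of models). Within the second library group these counts were 6 members against 18–20 hpf (0.618% of models) and 1 member, ML204429a, against 15–17 hpf (0.0325% of models).

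The 4 members without overlap against 18–20 hpf were those with the cleanest fall. ML141114a had 246, 309, 328 and 404 CPM in the embryos at 13 hpf and 167, 242, 113 and 251 CPM in those at 14 hpf. At 15–17 hpf its embryos ranged from 10.1 to 124 CPM (median 47.8) and at 18–20 hpf from 1.77 to 53.6 (median 12.5). It was as high in the embryos at 11 and 12 hpf (226 and 251 CPM) as at 13–14 hpf, and fell to 4.89% of its peak window by 18–20 hpf, the lowest such value of any member.

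ML22661a had 137, 96.6, 32.7 and 32.5 CPM at 13 hpf and 20.5, 62.1, 73.1 and 61.4 CPM at 14 hpf, against 0–15.8 CPM (median 3.59) at 18–20 hpf. It was already at 24.2 and 100 CPM at 11 and 12 hpf, so that its mean at 11–12 hpf was 96.5% of that at 13–14 hpf. ML195916a had 448, 447, 342 and 284 CPM at 13 hpf and 256, 242, 245 and 246 CPM at 14 hpf, against 16.8–140 CPM (median 79.1) at 18–20 hpf. Its 4 embryos at 13 hpf all lay above its 4 at 14 hpf, and the share of all models that did so was not counted. ML002223a had the most even peak of the 4, with 236, 304, 307 and 264 CPM at 13 hpf and 250, 222, 256 and 206 CPM at 14 hpf, against 34.8–191 CPM (median 73.8) at 18–20 hpf. None of the 4 is among the tentacle or colloblast candidates looked up below, and no gene name was at hand for them.

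Much of the summed level came from few transcripts. At 13–14 hpf 12 members had at least 500 CPM, 45 had at least 100 CPM and 69 were under 50 CPM, and the 2 most abundant made up 42.5% of the sum. ML218818a, the most abundant, had 2555, 14621, 11197 and 14250 CPM in the embryos at 13 hpf and 4850, 4895, 15243 and 1522 CPM in those at 14 hpf. Its embryos ranged from 1057 to 8516 CPM (median 2704) at 15–17 hpf and from 1543 to 25355 CPM (median 4944) at 18–20 hpf. The highest single value, 25355 CPM, was that of embryo 4 at 19 hpf. The SD over the embryos of a window was larger than the difference between the window means (8642 ± 5775 CPM at 13–14 hpf, SD, n = 8, and 5973 ± 6641 at 18–20 hpf, SD, n = 11).

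ML090813a, the second in level, had 14190, 7981, 3457 and 8308 CPM at 13 hpf and 3547, 2444, 6227 and 9804 CPM at 14 hpf. It rose earlier, with 3527 and 5719 CPM at 11 and 12 hpf, and its mean was still 83.6% of the peak window at 15–17 hpf and 49.6% at 18–20 hpf. Its highest embryo at 13–14 hpf was the one of the first library group, whereas that embryo was the lowest at 13 hpf for ML218818a. ML46396a, the third in level, had 2985, 2191, 1118 and 2153 CPM at 13 hpf and 1297, 859, 1516 and 2697 CPM at 14 hpf, with 675 ± 425 CPM (SD, n = 11) at 18–20 hpf.

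ML46396a went up and down in the same embryos as ML090813a. Over the 30 embryos at 13–20 hpf the level of ML090813a varied 10.5-fold and that of ML46396a 10.9-fold, while their ratio lay between 2.51 and 7.19. Their identifiers are far apart. Both fell over these hours, and that fall was not separated from differences between embryos of an hour. For another pair of abundant members, ML218818a and ML10213a, the ratio ran from 3.67 to 47.5 over the same 30 embryos. The next in level at 13–14 hpf were ML34341a (1131 CPM), ML10213a (976 CPM), ML227810a (947 CPM), ML319815a (940 CPM), ML038014a (834 CPM), ML10111a (823 CPM) and ML034332a (752 CPM). The embryos at 13–14 hpf of ML34341a split into 3 near 1933, 1671 and 1707 CPM (embryo 1 at 13 hpf and embryos 1 and 3 at 14 hpf) and 5 between 671 and 781 CPM, with none between.

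The members with the most concentrated peaks were mostly of low level. ML086445a had the largest share, 52.9%. It had 53.0, 21.5, 32.2 and 22.3 CPM at 13 hpf and 40.1, 9.64, 26.4 and 25.2 CPM at 14 hpf, against 2.69 and 6.32 CPM at 11 and 12 hpf. Its embryos ranged from 0 to 38.1 CPM (median 9.21) at 15–17 hpf and from 0 to 11.2 CPM at 18–20 hpf. ML044918a (share 51.0%) had 24.1, 33.2, 35.5 and 44.6 CPM at 13 hpf and 10.2, 10.8, 42.3 and 18.5 CPM at 14 hpf, and its embryos at 13 hpf overlapped those at 14 hpf.

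ML08268a (share 50.9%) owed its place to 13 hpf alone. It had 116, 29.3, 54.0 and 10.1 CPM there and 5.12, 1.81, 10.6 and 7.57 CPM at 14 hpf, so that a single embryo, the one of the first library group, gave about as much as the other 7 together. Its identifier is next to that of ML08269a, which encodes MlBsh, a homeobox transcription factor that the study lists as a possible colloblast transcription factor. The model of MlBsh, ML08269a, was also highest at 13–14 hpf (50.9 CPM, against 32.9 at 11–12 hpf and 38.5 at 15–17 hpf) but its share at the peak was too small for it to be a member. By embryo the levels of ML08269a differed from those of ML08268a. ML08269a had 24.1, 53.7, 51.3 and 56.8 CPM at 13 hpf and 70.0, 51.2, 36.1 and 63.9 CPM at 14 hpf. The other members among the 10 largest shares were ML14796a (48.7%), ML10112a (48.7%), ML16125a (48.3%), ML034332a (48.2%), ML46082a (48.2%), ML216338a (47.1%) and ML204430a (46.7%). At the limit of the set, the last members were ML085213a (31.87%), ML04012a (31.84%) and ML01161a (31.83%), and the first models outside were ML04542a (31.78%), ML154174a (31.73%) and ML073040a (31.63%).

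To see which members the study connects with tentacles, they were looked up among the candidates it drew up by gene presence across ctenophore species, which are genes lost in lineages without colloblasts or without tentacles. Of the candidates that the study's supplement names by domain match or cluster, 6 members were among 168 colloblast candidates (4.05% of members, against 0.960% of the 6148 models with at least 20 CPM) and 3 were among 147 tentacle candidates (2.03%, against 0.651%). Both lists are shorter than the study's full ones, so further members may be candidates. No test was made of these shares. All but 1 of the 9 were also in a cluster of candidates with like profiles, but those clusters were formed on this time course and are not independent of it. No member was among 5 transcription factors looked up by identifier, the toxin-like models of a putative secretory tentacle cell or the second tentacle cluster. Of these lists only 3, 9 and 6 models had at least 20 CPM in some window (0.0488%, 0.146% and 0.0976% of the 6148). With lists this short, their absence says little about the members. Other transcription factors of the study were not looked up. The 9 listed members are thus few, and no annotation of the other members was at hand.

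Of the colloblast candidates, ML150914a was the most abundant. It carries a PAN/Apple domain, a fold found in extracellular proteins that bind other proteins or sugars. It had 147, 291, 642 and 248 CPM at 13 hpf and 244, 304, 482 and 157 CPM at 14 hpf, against 28.3 and 107 CPM at 11 and 12 hpf. Its embryos at 15–17 hpf (72.5–481 CPM, median 157) overlapped those at the peak.

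ML257634a, a colloblast candidate with no named domain, had 72.3, 155, 127 and 99.4 CPM at 13 hpf and 107, 132, 93.3 and 156 CPM at 14 hpf. It had been at 52.5 and 37.9 CPM at 11 and 12 hpf and came down to a median of 43.3 CPM (20.6–88.9) at 18–20 hpf. ML25122a, which has a coiled coil, had 130, 110, 172 and 91.3 CPM at 13 hpf and 63.2, 59.1, 132 and 58.9 CPM at 14 hpf, against 1.35 and 24.5 CPM at 11 and 12 hpf.

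ML07242a carries the catalytic domain of tyrosine-protein kinases, enzymes that pass signals by adding phosphate to other proteins. It had 16.9, 71.2, 119 and 89.3 CPM at 13 hpf and 48.7, 66.3, 30.8 and 63.1 CPM at 14 hpf, against 10.8 and 7.11 CPM at 11 and 12 hpf. ML35607a, with no named domain, had 14.5, 36.1, 25.1 and 22.3 CPM at 13 hpf and 33.3, 24.7, 26.0 and 27.8 CPM at 14 hpf, after 1.35 and 6.32 CPM at 11 and 12 hpf. For both, the embryo of the first library group was the lowest at 13–14 hpf.

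ML01434a, predicted to be disordered, had no counts at 11 and 12 hpf, nor in embryo 1 at 13 hpf. The other embryos had 37.1, 28.9 and 58.9 CPM at 13 hpf and 17.1, 13.9, 48.6 and 0.841 CPM at 14 hpf. The embryos at 14 hpf thus ranged over more than an order of magnitude for this transcript, but the lowest value rests on 1 count. Without that embryo the range at 14 hpf was 13.9 to 48.6 CPM. The embryos at 18–20 hpf ranged from 0 to 61.2 CPM.

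The 3 tentacle candidates include 2 that carry domains of membrane transport. ML17746a, with an ion transport domain as found in voltage-gated channels, had 24.1, 140, 75.8 and 130 CPM at 13 hpf and 76.9, 83.2, 86.1 and 73.2 CPM at 14 hpf. Its level at 11–12 hpf was 10.0% of that at 13–14 hpf, and at 18–20 hpf it was still 63.4%. ML23402a, of the ZIP family, whose members carry zinc and other metal ions into the cytoplasm, had 2.41, 54.6, 41.5 and 58.9 CPM at 13 hpf and 56.4, 45.8, 48.1 and 16.0 CPM at 14 hpf. Its mean at 15–17 hpf was 98.6% of that at 13–14 hpf.

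ML216338a, of the endonuclease/exonuclease/phosphatase superfamily, had the most concentrated peak of the listed members (47.1%). It had 12.1, 49.8, 21.3 and 10.1 CPM at 13 hpf and 41.8, 27.7, 25 and 26.1 CPM at 14 hpf, and its embryos ranged from 0 to 17.7 CPM (median 4.99) at 18–20 hpf.

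**Figure D3:**
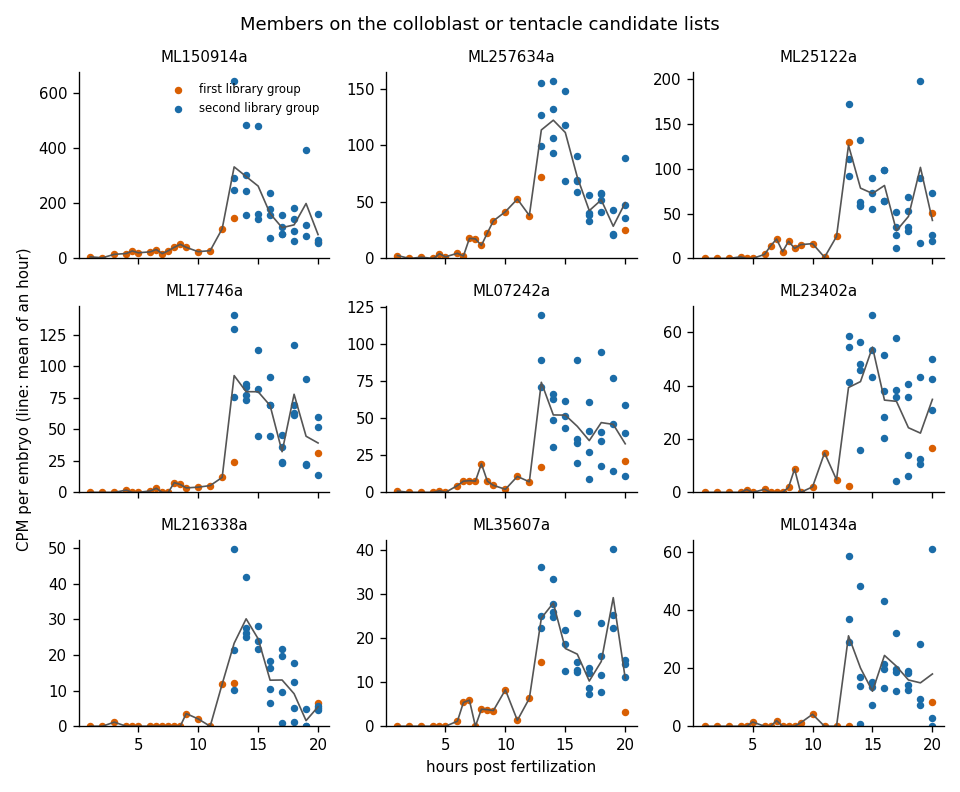
Level in CPM (vertical axis, a scale of its own in each panel) of the 9 members on the colloblast or tentacle candidate lists in each embryo against age in hours post fertilization, with orange points for the first and blue points for the second library group and a line for the mean of an hour. In the panel of ML01434a the orange point at 13 hpf is at 0, while the blue ones are at 37.1, 28.9 and 58.9 CPM.

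The library group moved with the rise of the members. At 13 hpf, where both groups are present, the mean of the second group (3 embryos) exceeded the single embryo of the first for 124 of 148 members, with a median ratio of 2.32 (on CPM + 1), against 63.8% of the 6148 models and a median ratio of 1.25. All 3 lay above it for 110 members (74.3%, against 45.5% of models). That embryo had 414804 counts, and 17 members had none in it, which allows up to 7.23 CPM each (3 counts), while their means in the other 3 embryos ranged from 17.5 to 62.3 CPM.

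Within the first library group alone, the rise from 12 to 13 hpf was smaller, with 96 of 148 members higher at 13 hpf and a median ratio of 1.38, against 53.0% of models and 1.03. Against the same embryo at 12 hpf, the second group at 13 hpf was higher for 144 members with a median ratio of 3.72, against 70.4% of models and 1.35. The later fall was seen in both groups. The rule set 13–14 hpf above every other window, so that the rise and this fall were both favoured in advance. From 13 to 20 hpf 99 members were lower in the first group (1 embryo each; median ratio of 13 to 20 hpf 1.65, and 51.1% of models were lower) and 134 in the second (3 embryos each; 2.22, and 55.6% of models). These are descriptions of few embryos. How much of the difference between 11–12 and 13–14 hpf belongs to age and how much to the library group cannot be told apart beyond these values.

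**Figure D4:**
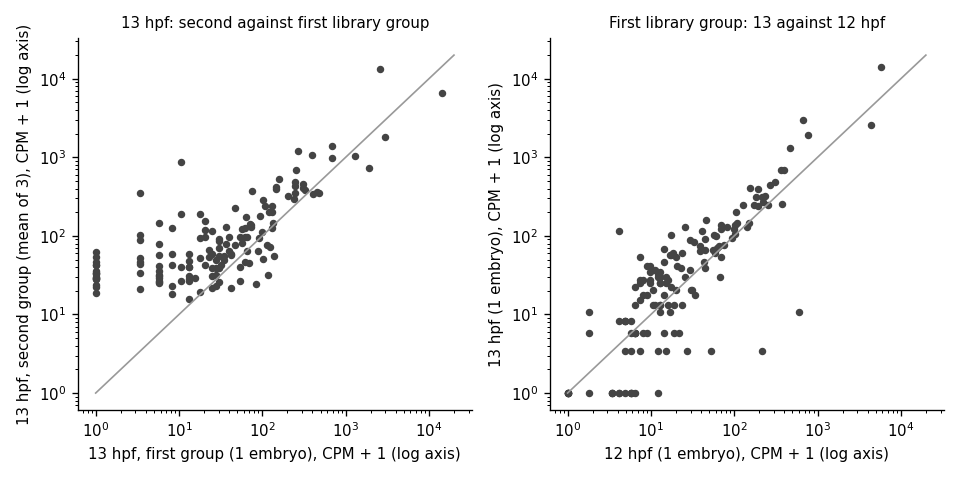
Levels of the 148 transcripts (CPM + 1, both axes logarithmic, the line marks equal values) at 13 hpf in the second library group (mean of 3 embryos) against the first (1 embryo), on the left, and at 13 hpf against 12 hpf within the first library group (1 embryo each), on the right. On the left 124 points lie above the line and on the right 96.

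Differences within the windows were not used by the rule directly and were tested. The rule did set 13–14 hpf above the later windows, which may favour a fall within the windows too. How far it does so was not tested. Counts of the 30 embryos at 13–20 hpf were fitted with a coefficient for each hour and a term for the library group (edgeR quasi-likelihood F-test, adjusted over 8844 models by Benjamini-Hochberg), and all 148 members passed the filter on low counts. No member passed an adjusted p of 0.05 between 13 and 14 hpf, 15 and 17 hpf, or 18 and 20 hpf. The smallest adjusted p of a member in these comparisons was 0.593, 0.187 and 0.389 in edgeR, and among all models 1 was called in edgeR (0.0113%, higher at 14 hpf). DESeq2, on the same embryos, called 0, 3 and 1 members. The 3 were ML257634a, ML195916a and ML084443a, of 9 models lower at 17 than at 15 hpf in DESeq2 (0.102%), and the 1 was ML234011a, of 2 models higher at 20 than at 18 hpf (0.0226%). DESeq2 also called 21 models higher at 17 hpf (0.237%), and 3 higher (0.0339%) and 1 lower (0.0113%) at 14 hpf than at 13 hpf, none of them a member.

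At an unadjusted p under 0.05 in edgeR, 3 members were higher and 10 lower at 14 hpf than at 13 hpf, where 2.70% and 1.56% of all models were. Between 15 and 17 hpf 5 were higher and 32 lower at 17 hpf (3.40% and 3.63% of models). Between 18 and 20 hpf 10 were higher and 12 lower at 20 hpf (3.20% and 3.78% of models). The estimate itself was lower in the later hour for 104, 102 and 85 of the 148 members, with a median log2 fold change of -0.27, -0.45 and -0.17, against 0.06, 0.05 and -0.02 over all models. The shares of all models lower in the later hour were 44.6%, 46.1% and 51.6%. Those models were not chosen to be lower after 13–14 hpf, as the members were. The excess of lower members is therefore not independent of the rule. Without embryo 4 at 15 hpf the 32 lower members became 21, and without embryo 4 at 14 hpf the 10 became 3. The 10 were 19 without embryo 3 at 14 hpf, 5 without embryo 1 at 14 hpf, and 6 without embryo 2 or embryo 4 at 13 hpf. Of the higher counts, the 3 at 14 hpf became 1 without embryo 2, 3 or 4 at 13 hpf. The 5 at 17 hpf became 2 without embryo 4 at 17 hpf and 3 without embryo 1 or 2 at 15 hpf or embryo 1 at 17 hpf. The 10 at 20 hpf became 16 without embryo 2 at 18 hpf and 6 without embryo 2 at 20 hpf.

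Some of the members with small p are given here with their estimates. Estimates of other members reached 4.09 from 15 to 17 hpf and 3.54 from 18 to 20 hpf and were not called in edgeR either. The colloblast candidate ML257634a, with hourly means of 111, 71.9 and 42.2 CPM at 15, 16 and 17 hpf, had a log2 fold change of -1.34 from 15 to 17 hpf (SE 0.32, 95% interval -1.99 to -0.69, edgeR adjusted p = 0.187). ML070249a had 485, 343, 467 and 252 CPM at 13 hpf and 92.2, 133, 185 and 109 CPM at 14 hpf. Its embryos of these hours did not overlap, but the share of all models without such overlap was not counted. Its log2 fold change was -1.34 (SE 0.34, edgeR adjusted p = 0.593). ML08268a, described above, had -2.33 from 13 to 14 hpf (SE 0.76, edgeR adjusted p = 0.999).

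In the opposite direction, ML234011a had a mean of 11.2 CPM at 18 hpf and 56.7 at 20 hpf, a log2 fold change of 2.74 (SE 0.58, 95% interval 1.56 to 3.92, edgeR adjusted p = 0.389). Embryo 2 at 20 hpf had 139 CPM and the other 3 had 19.8–41.9, and without it the log2 fold change was 1.97. ML00051a had 6.57 and 32.7 CPM at these hours, with a log2 fold change of 2.49 (SE 0.74, edgeR adjusted p = 0.455), which was 3.45 without embryo 4 at 18 hpf. ML34341a had a log2 fold change of 0.87 from 13 to 14 hpf (SE 0.28, edgeR adjusted p = 0.999), which was 0.11 without the term for the library group, since its highest embryo at 13 hpf is the one of the first group.

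Embryos of the same hour differed more in these transcripts than in most. The standard deviation of log2(CPM + 1) within hours, over the 30 embryos at 13–20 hpf, had a median of 0.93 over the members (range 0.35–2.21) and 0.59 over the 6148 models, and 131 members lay above the latter. Levels were not matched in this comparison. The members were chosen by the values of these same embryos, and how far the rule sets this spread was not tested. The embryos of the first library group at 13 and 20 hpf were included. Their median log2 deviation from the hour mean was -0.85 at 13 hpf and -0.53 at 20 hpf over the members. Over the 6148 models it was -0.20 and -0.13. Without these embryos the value was lower for many members, for some much lower, and slightly higher for others. The value over all models was not computed without them, so the share of the library group in 0.93 against 0.59 is not known. The members also tended to be high in the same embryos. Embryo 2 at 16 hpf was the highest of its hour for 80 members (54.1%, against 34.4% of models), embryo 2 at 20 hpf for 73 (49.3%, against 28.8%), embryo 3 at 14 hpf for 71 (48.0%, against 28.4%), embryo 4 at 15 hpf for 71 (48.0%, against 32.7%) and embryo 3 at 17 hpf for 69 (46.6%, against 31.3%). Embryo 1 at 13 hpf, of the first library group, was the highest for 16 (10.8%, against 23.3%), and embryos of the second group were as rarely the highest (embryo 3 at 16 hpf for 16, against 22.8% of models, and embryo 4 at 14 hpf and embryo 2 at 17 hpf for 17 each, against 29.0% and 24.2%).

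The widest spread among embryos of 1 hour was that of ML26623a (SD 2.21), which had 7.23, 65.4, 48.0 and 60.9 CPM at 13 hpf but 0, 104, 44.2 and 0.841 CPM at 14 hpf. This member was chosen after its values were seen. At 15 hpf its 3 embryos had 1.04, 0.669 and 2.71 CPM, and at 20 hpf the 4 embryos had 1.65, 67.4, 0 and 25.2 CPM. Embryos near 0 and embryos well above 20 CPM thus stood side by side at 14 and 20 hpf within the second library group.

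Among the others with a wide spread were ML10112a (SD 2.16) and ML10111a (SD 1.86), whose identifiers follow each other. ML10111a had 9.64, 65.4, 1109 and 1471 CPM at 13 hpf and 1629, 735, 419 and 1146 CPM at 14 hpf, and it had 12.1 and 593 CPM at 11 and 12 hpf. ML10112a had 2.41, 28.3, 369 and 660 CPM at 13 hpf and 642, 619, 168 and 418 CPM at 14 hpf, and 1.35 and 214 CPM at 11 and 12 hpf. The same embryos were low in both. The lowest values rest on few counts (4 and 1 in embryo 1 at 13 hpf, 15 and 1 in embryo 3 at 20 hpf). In the other 28 embryos at 13–20 hpf ML10111a ranged from 44.4 to 1629 CPM and ML10112a from 6.15 to 660 CPM, with a ratio of the 2 between 1.19 and 9.40 (median 2.37). With those 2 embryos the ratio reached 15.0. Whether reads of one of these models could have been counted for the other was not tested.

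**Figure D5:**
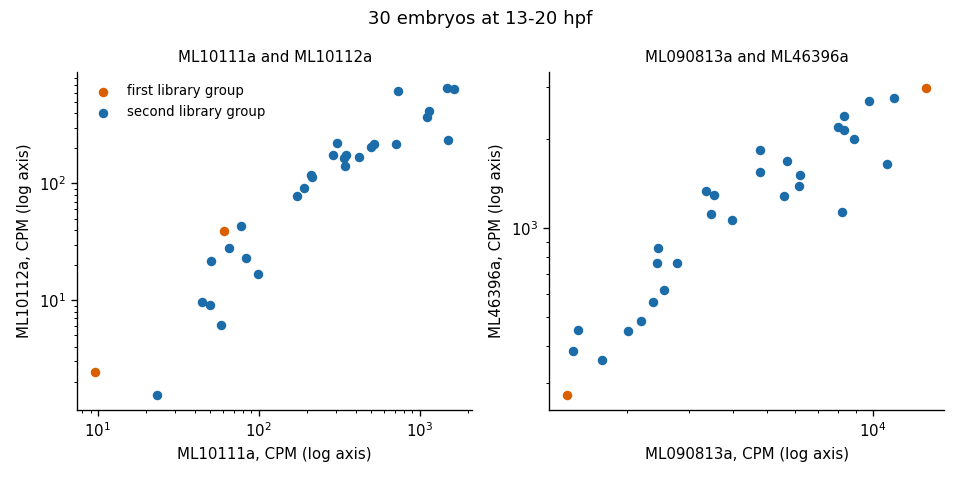
Levels in CPM of ML10112a against ML10111a (left) and of ML46396a against ML090813a (right) in the 30 embryos at 13–20 hpf, all axes logarithmic, with orange points for the first and blue points for the second library group. The points rise together in both panels. On the left the lowest points rest on 4 counts of ML10111a and 1 count of ML10112a, and on the right ML090813a has a 10.5-fold range.

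Other members also stood near each other by identifier. By the first 4 digits of the identifier, 39 members fell into 18 groups (3 groups of 3 and 15 of 2), and 6 pairs had consecutive identifiers. How often as many other models would share digits was not counted, so these counts say nothing of the members in particular. No coordinates of these models were used, so their distance is not given here. The groups of 3 were ML15092a, ML150910a and the colloblast candidate ML150914a (364 CPM in sum at 13–14 hpf), the transporter ML23402a with ML234011a and ML234016a (159 CPM), and ML174710a with ML174717a and ML174747a (157 CPM). Neighbouring identifiers did not go with a constant ratio where this was examined, neither for ML10111a and ML10112a above nor for the next pair. ML22786a and ML227810a (988 CPM in sum) had a ratio between 0 and 0.184 over the 30 embryos, and the former had no counts in at least 1 of them. The consecutive pair ML04718a and ML04719a summed to 402 CPM.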

How the data were processed

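RNA of single *M. leidyi* embryos was read by CEL-Seq with barcodes that carry unique molecular identifiers. Per the labels, base calling used CASAVA 1.8, alignment Bowtie2 2.1.0 and counting HTSeq 0.5.4p3. For genome build, counting options and collapsing of identifiers, nothing is given in the sources used here, so reads may not be independent molecules, and floors cover counting error only. The deposited values are whole-number counts per ML2.2 model, without normalization. Rows for uncounted reads were left out of totals (counted reads were 10.2–33.8% of all). CPM used no gene length, since CEL-Seq counts 3′ ends. The members and lists were chosen with earlier results of these data known. Library groups were split at 2.5% ambiguous reads. Tests used edgeR 4.0.16 (TMM, filterByExpr, R 4.3.3), tested on simulated data. Alternatives were RLE factors, DESeq2 1.42.0, no filter, no library group term, the second group only, only the hours compared, shallow embryos kept, and leaving out each embryo. Members were also chosen anew with TMM totals, hourly means, medians, other minimum levels and the second group only. Nothing says that embryos of an hour came from separate spawnings, so p-values measure the spread between these embryos. Named are members on the study's lists, the 10 highest by level and by share, those nearest the limit, the groups of neighbouring identifiers with most members, and a few with the smallest p. Python 3.11.15, numpy 2.4.6, pandas 2.3.3 and matplotlib 3.10.9 were used. The reference table held none of these identifiers, and no sequences were used here.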

Additional observations from a re-analysis of the deposited data

Results flagged for a closer look

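In 66 sets of 4 embryos of the same hour (summed levels, the median member, and single members at 13 and 14 hpf), 4 had an embryo far from the other 3 by Dixon's criterion, and chance gives about 1 in 20. The median member stood at 52.4% of its 13–14 hpf mean in embryo 1 at 13 hpf, of the first library group, below the other embryos of that hour. ML34341a had 1933 CPM in the same embryo, above the other 3. ML25122a had 132 CPM in embryo 3 at 14 hpf, above the rest of its hour, and ML216338a had 41.8 CPM in embryo 1 at 14 hpf.

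Embryos under 200000 counts were not used for the levels above but hold counts of the members. In embryo 3 at 15 hpf, with 18731 counts, the members made up 1.98% of the counts, below the 3 embryos used at that hour. In embryo 3 at 19 hpf, with 134806 counts, they made up 2.37%, within the range of the others, and in the embryo at 5.5 hpf, with 138478 counts, 0.0296%.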

How the results depend on the processing

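With DESeq2 3 members passed between 15 and 17 hpf (of 21 higher and 9 lower among all 8844 models) and 1 between 18 and 20 hpf (of 2), against 0 in edgeR. Without the filter on low counts edgeR called 1 between 18 and 20 hpf (ML234011a, the only 1 of 15081 models). The cause was not tested. All other alternatives gave 0 in the 3 comparisons, and leaving out each embryo gave 0 to 0. With a minimum of 10 CPM 81 of the 148 members were chosen again, and with 40 CPM 95. The number was 134 with TMM totals, 145 with hourly means, 135 with shallow embryos, 112 with medians and 127 with the second library group only. Leaving out each embryo at 13–20 hpf, of which those at 15–20 hpf were added after the data were seen, gave 125 to 146. Members near 20 CPM rest on few counts in the shallower embryos. The embryo numbers of the labels run through the hours in 4 series, though nothing says that a series shares parents or a batch. With the series as a replicate block, chosen after the data were seen, 0 members passed in the 3 comparisons, and at an unadjusted p under 0.05 in edgeR 2, 5 and 9 were higher and 8, 37 and 11 lower. Deviations from the hour means did not pair by series (median r 0.01 over 85 pairs, against 0.0037 over 257 pairs of different series), and 6 of 28 embryos were closest to their own series.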
